A study of Mus musculus with 22 samples.

Results

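The matrix metalloproteinases (MMP), the ADAMTS proteases and the ADAMTS-like proteins were followed in astrocyte ribosome-associated RNA and in the unbound RNA of injured mouse spinal cord. Members were taken by symbol (Mmp, Adamts or Adamtsl followed by a number), which gave 47 of the 24060 genes listed: 23 Mmp, 19 Adamts and 5 Adamtsl genes. The animals were female mice in which a Cre recombinase driven by a mouse Gfap promoter (mGFAP-Cre) acted on a RiboTag allele, which places a hemagglutinin (HA) tag on ribosomes of cells with Cre activity. The HA immunoprecipitate (HA IP) holds RNA bound to the tagged ribosomes and the flow-through holds the RNA that was not precipitated. Wild-type (WT) mGFAP-Cre-RiboTag mice were uninjured (n = 4) or received a severe crush of the cord at thoracic level 10 (WT SCI, n = 4). The third group carried floxed Stat3 as well (mGFAP-Cre-RiboTag-STAT3-LoxP, called STAT3-CKO) and received the same crush (STAT3-CKO SCI, n = 3). Injured mice were young adults, sampled 14 days after the crush from the central 3 mm of the lesion, and the uninjured mice matched them in age and sex. All groups carried Cre and the RiboTag allele, so every group depends on where the Gfap promoter was active, and uninjured STAT3-CKO mice were not analysed here. Each of the 11 animals gave both fractions, 22 libraries in all. Values of a group are given below in the order of animals 42, 79, 65 and 154 (uninjured), 9935, 9874, 9843 and 9596 (WT SCI) and 186, 531 and 270 (STAT3-CKO SCI).

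MMPs and ADAMTS proteases are zinc-dependent enzymes that cleave extracellular matrix, cell surface proteins and each other's precursors. Most are made as inactive proenzymes, are activated by furin-like convertases or plasmin and are blocked by tissue inhibitors of metalloproteinases (TIMPs). In the central nervous system, gelatinases and membrane-type MMPs are known for opening the blood-brain barrier and remodelling basement membrane, and a subset of ADAMTS enzymes for cutting the chondroitin sulfate proteoglycans of the glial scar. ADAMTS-like proteins share the matrix-binding domains but lack the protease domain.

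Many inducible MMP genes lie in a cluster on chromosome 9 and are known for a binding site of AP-1, a dimer of Fos and Jun proteins, just before their start. The windows of Mmp12, Mmp13, Mmp3 and Mmp8 are shown because these were the cluster genes with the most reads over all libraries (1158, 84, 30 and 23), and Mmp8 shows a window without the AP-1 letters. Each is 110 bases before an annotated start on the plus strand, written 5′ to 3′, from RefSeq on GRCm38.p6. Capitals mark the AP-1 letters TGANTCA, searched on both strands.
Mmp12, chr9:7347264-7347373: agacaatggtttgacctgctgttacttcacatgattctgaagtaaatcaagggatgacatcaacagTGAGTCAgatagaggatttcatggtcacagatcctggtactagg
Mmp13, chr9:7272404-7272513: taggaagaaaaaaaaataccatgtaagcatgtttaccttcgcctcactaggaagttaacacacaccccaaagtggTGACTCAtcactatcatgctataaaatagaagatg
Mmp3, chr9:7445712-7445821: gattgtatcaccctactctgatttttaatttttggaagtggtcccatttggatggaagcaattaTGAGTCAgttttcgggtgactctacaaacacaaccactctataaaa
Mmp8, chr9:7558319-7558428: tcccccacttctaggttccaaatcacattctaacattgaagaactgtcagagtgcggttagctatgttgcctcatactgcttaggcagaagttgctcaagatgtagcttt

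Promoter sequence, from 250 bases before to 50 bases after a start, was matched for 32 of the 47 members. The AP-1 letters began 44, 35 and 46 bases before the starts of Mmp12, Mmp13 and Mmp3. They stood in 8 of 10 matched Mmp genes of chromosome 9 (not in Mmp8 or Mmp27) and in 0 of the other 22 matched members, against 2565 of all 32851 promoters (7.81%). Another annotated start of Mmp12, at the 5′ end of the gene, had none (window chr9:7344287-7344396), and the window shown lies inside the gene. A member counted if any of its starts had the letters, whereas the 7.81% is a share of promoters. The STAT letters TTCNNNGAA, searched because STAT3 was the deleted gene, were in 1 of the 32 matched members (Mmp23) and in 2726 of all promoters (8.30%). A match is a run of letters and not a measured binding site, and no match says only that these letters are not in this window.

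HA IP libraries held 31292491 to 59337089 counts and flow-through libraries 3898755 to 11242654. The share of HA IP counts from Rn45s (precursor of ribosomal RNA) lay between 12.6% and 26.7% without injury, between 89.0% and 96.2% after injury in WT mice, and between 52.2% and 89.2% after injury without STAT3. Flow-through had like shares. Outside Rn45s, Lars2 and Mir6236, whose counts include ribosomal reads, WT SCI kept 620265 to 2691494 counts in HA IP and 91626 to 615302 in flow-through. Low members were therefore measured least well in WT SCI, and the effect of injury cannot be told apart from that of the Rn45s share. Stat3 checked the genotype labels: its HA IP level was 66.1, 56.2, 26.3 and 34.97 CPM (read counts scaled by TMM-adjusted library size) in WT SCI and 7.85, 10.1 and 12.3 CPM in STAT3-CKO SCI (log2 −2.17 ± 0.34 SE, adjusted p = 0.00331, edgeR's quasi-likelihood test; −2.52 with the flow-through counts subtracted, as described below). The 7 astrocyte markers summed to 2559 to 5407 CPM in HA IP and 250.2 to 986 CPM in flow-through on each fraction's own scale, and none was at 0 in HA IP. The labels do not say which exons of Stat3 were deleted.

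The HA IP and flow-through counts of an animal were not independent. Over all genes there were 148196 pairs of a gene and an animal with flow-through counts, and the HA IP count was below the flow-through count of the same animal in 16 of them. Against the flow-through of another animal of the same group, 109 to 12654 genes were below. Among the members, 297 pairs had flow-through counts, 0 were below and 51 were equal. Flow-through counts came to 10.4% to 28.9% of HA IP counts outside the ribosomal genes. The largest shortfall among the 16 was 15 reads. The sources used here do not say how the HA IP counts were made, and the reason for the pattern was not tested. Members and pathway genes called in HA IP are given as deposited and, where they could still be tested, again after the animal's flow-through counts were subtracted, an alternative chosen after the data were seen. In tests of HA IP against flow-through, the subtracted counts then enter both sides. Subtraction by itself shifts such values, so they are not separate support. In parentheses on pathway genes, the value after a semicolon is the one after subtraction.

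**Figure D1:**
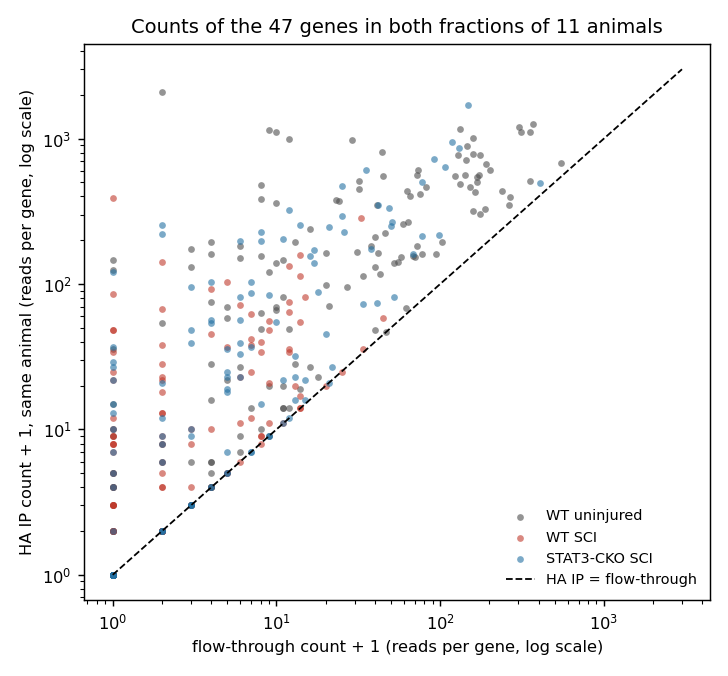
HA IP count against flow-through count of the same animal for the 47 genes (reads per gene plus 1, both axes on a log scale), 1 point per gene and animal, coloured by condition. No point with flow-through counts lies under the dashed line of equality, and 51 of 297 lie on it.

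Of the 47 members, 34 had enough counts to be tested in at least 1 comparison. Mmp1a and Mmp1b (interstitial collagenases) and Mmp7 (matrilysin) had 0 counts in all 22 libraries. The other 10 that were never tested had 2 to 86 counts over all libraries: Mmp10 2, Mmp27 4, Mmp20 12, Mmp21 12, Mmp8 23, Mmp25 24, Mmp3 30, Adamts13 36, Adamts14 43 and Adamts7 86. The 12 counts of Mmp20, the enamel protease, all came from the HA IP of animal 270. Collagenase transcripts were thus close to the limit of these libraries. Mmp13, collagenase 3, had 84 counts in all, and its HA IP count equalled the flow-through count in every animal with any: 19 in animal 9596, 20 in animal 270, 2 in animal 531 and 1 in animal 42. Mmp3, stromelysin 1, showed the same, with 3 counts in each fraction of animal 65, 2 of animal 9843 and 10 of animal 270. For both genes, 0 counts were left in HA IP after subtraction.

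Uninjured cord. In uninjured animals the comparison of HA IP with flow-through shows which of these transcripts were enriched or depleted on astrocyte ribosomes, not which were present. Mmp14, Mmp28, Adamts9, Adamts1 and Adamts20 were higher in HA IP, and Mmp9, Mmp17, Mmp24, Adamts3, Adamts6, Adamtsl2, Mmp15, Adamtsl4 and Adamts4 were lower. That is 14 of 27 tested members (51.85%), 5 higher and 9 lower, against 50.7% of all 14312 genes tested, so the share of called members was close to that of all genes. The members' median log2 difference was −0.18 against 0.02 over all genes. After subtraction 17 of 27 were called, 7 higher and 10 lower, against 59.2% of 14097 genes. All CPM in this comparison are on 1 scale for both fractions, and its main test had no term for the animal.

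Mmp14 (membrane-type 1 MMP, chr14:54431612-54445364), which activates proMMP2 and cuts collagen at the cell surface, stood farthest toward HA IP. Its level was 32.6, 30.03, 34.4 and 18.1 CPM in HA IP and 0.0695, 1.47, 2.14 and 0.957 CPM in flow-through, so the lowest HA IP library was far above the highest flow-through library. The log2 difference was 4.94 ± 0.56 (SE, adjusted p = 3.36e-05) and 5.23 ± 0.54 after subtraction. The other 3 membrane-type members that were called went the other way. Mmp17 (MT4-MMP), a glycolipid-anchored enzyme, was at 10.7, 5.13, 4.98 and 6.40 CPM in HA IP and 38.2, 18.8, 22.1 and 22.9 CPM in flow-through (log2 −1.91 ± 0.31, and −3.35 ± 0.27 after subtraction). Mmp24 (MT5-MMP), known as a neuronal membrane-type enzyme, was at 8.03, 4.79, 4.73 and 5.47 CPM against 24.7, 13.1, 13.6 and 15.2 CPM (−1.54 ± 0.28 and −2.38 ± 0.27). In both genes all HA IP libraries were below all flow-through libraries. Mmp15 (MT2-MMP) differed less, at 9.51, 14.5, 8.24 and 9.92 CPM against 14.0, 22.5, 15.0 and 14.5 CPM with overlapping groups (−0.64 ± 0.24, adjusted p = 0.0469, and −0.82 ± 0.25 after subtraction), and it kept its call in 7 of 14 alternatives (adjusted p 0.00628 to 0.159).

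The proteoglycan-cleaving ADAMTS class split. Adamts1, which cuts versican and aggrecan, was at 18.3, 25.9, 11.98 and 10.1 CPM in HA IP and 9.17, 5.15, 1.67 and 3.83 CPM in flow-through (1.68 ± 0.45, and 1.87 ± 0.43 after subtraction). Adamts9, a related enzyme of the secretory pathway and pericellular matrix, was at 7.53, 3.66, 6.04 and 6.60 CPM against 0.486, 1.66, 2.86 and 0.783 CPM (2.22 ± 0.52 and 2.48 ± 0.54). Adamts20, its close paralog, was at 15.8, 13.5, 14.0 and 14.8 CPM against 10.98, 5.71, 7.38 and 3.74 CPM (1.05 ± 0.30 and 1.22 ± 0.30). In all 3 every HA IP library was above every flow-through library. Adamts4, aggrecanase 1, was the 1 member of the class that was lower in HA IP, at 17.4, 20.3, 15.1 and 22.04 CPM against 24.7, 31.8, 31.2 and 26.1 CPM (−0.60 ± 0.18, adjusted p = 0.0164, and −0.75 ± 0.20). Its groups did not overlap, and without the flow-through of animal 79 the adjusted p was 0.0519 (0.00237 to 0.0519 over the alternatives). Adamts5, aggrecanase 2, was at 13.9, 9.95, 11.6 and 7.92 CPM against 10.0, 4.05, 5.47 and 5.39 CPM, and passed after subtraction (0.89 ± 0.31, adjusted p = 0.0269) but not as deposited (adjusted p = 0.0591).

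Among the remaining MMPs, Mmp28 (epilysin, chr11:83440768-83463071), a secreted furin-activated enzyme, was at 2.29, 4.24, 2.30 and 2.85 CPM in HA IP and 0, 0.552, 0.714 and 0.609 CPM in flow-through (2.80 ± 0.74, and 3.04 ± 0.73 after subtraction). Mmp9, gelatinase B (chr2:164940780-164955850), was at 0.737, 1.21, 0.684 and 1.22 CPM in HA IP and 2.71, 8.47, 4.05 and 5.30 CPM in flow-through (−2.39 ± 0.45). After subtraction its HA IP level was 0.165, 0, 0.175 and 0.137 CPM (−5.32 ± 0.74), so most of the deposited HA IP counts of Mmp9 in uninjured cord had a flow-through count of the same size. Mmp19, a stromelysin-like enzyme that cuts basement membrane, was at 3.26, 3.24, 4.04 and 3.54 CPM against 2.71, 0, 0.476 and 0.261 CPM. Every HA IP library was higher; the test passed after subtraction (2.03 ± 0.74, adjusted p = 0.0326) and not as deposited (adjusted p = 0.0643). Mmp11 (stromelysin 3), the only tested stromelysin, had a log2 difference of 1.34 as deposited (adjusted p = 0.101) and 1.52 after subtraction (adjusted p = 0.0513).

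Of the other ADAMTS, Adamts3, which removes the N-propeptide of procollagen and activates VEGF-C, was at 6.23, 4.11, 3.64 and 5.93 CPM in HA IP and 18.6, 12.3, 10.0 and 16.3 CPM in flow-through (−1.53 ± 0.28, and −2.36 ± 0.27 after subtraction). Adamts6, which acts on fibrillin microfibrils and heparan sulfate proteoglycans, was at 6.84, 4.19, 4.76 and 5.75 CPM against 16.6, 14.0, 16.4 and 13.7 CPM (−1.49 ± 0.22 and −2.19 ± 0.25). In both genes the fractions did not overlap. Of the ADAMTS-like proteins, Adamtsl4, which binds fibrillin, was at 19.7, 20.6, 17.6 and 20.2 CPM against 25.5, 29.1, 40.7 and 27.0 CPM (−0.64 ± 0.18 and −0.80 ± 0.20). Adamtsl2, a regulator of TGF-beta binding to the matrix, was at 0.298, 0.132, 0.404 and 0.474 CPM against 0.556, 0.552, 2.38 and 1.30 CPM (−1.79 ± 0.67, adjusted p = 0.0447, and −2.74 ± 0.77 after subtraction). Without the flow-through of animal 65 the value for Adamtsl2 was −1.29 (adjusted p = 0.160, range 0.00874 to 0.160 over the alternatives). Adamtsl1 passed after subtraction (−0.58 ± 0.22, adjusted p = 0.0396; deposited adjusted p = 0.0662). Adamts2, a procollagen N-propeptidase, was at −0.75 with an adjusted p of 0.0959 (0.0559 after subtraction), and Adamts12, which cuts the matrix protein COMP, was at 1.22 (adjusted p = 0.119) and 1.39 (0.0926). The 13 members not called as deposited ranged from −0.75 (Adamts2) to 1.83 (Mmp19).

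Neuron and oligodendrocyte markers moved with the members that were lower in HA IP. The 4 neuron markers summed to 2200 to 2845 CPM in uninjured flow-through and to 307 to 577 CPM in HA IP (74.0 to 103 CPM after subtraction), each on its own fraction's scale. The 5 oligodendrocyte markers summed to 2885 to 3385 CPM and 1178 to 1576 CPM (910.2 to 1322 CPM after subtraction). Their part in the differences of the members lower in HA IP, Adamts4 among them, was not tested. Of the inhibitors and matrix genes of the pathway, Timp4 (3.77 ± 0.21; 4.03), the proteoglycan Bcan (3.20 ± 0.18; 3.45) and the hyaluronan receptor Cd44 (3.21 ± 0.19; 3.47) were higher in HA IP. Timp2 (−1.56 ± 0.18; −2.40), the proteoglycan Spock3 (−1.45 ± 0.19; −2.12) and the myelin protein Mbp (−1.09 ± 0.15; −1.48) were lower. Of 9 inhibitors 4 were higher and 4 lower, and of 15 tested substrates 4 were higher and 5 lower.

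**Figure D2:**
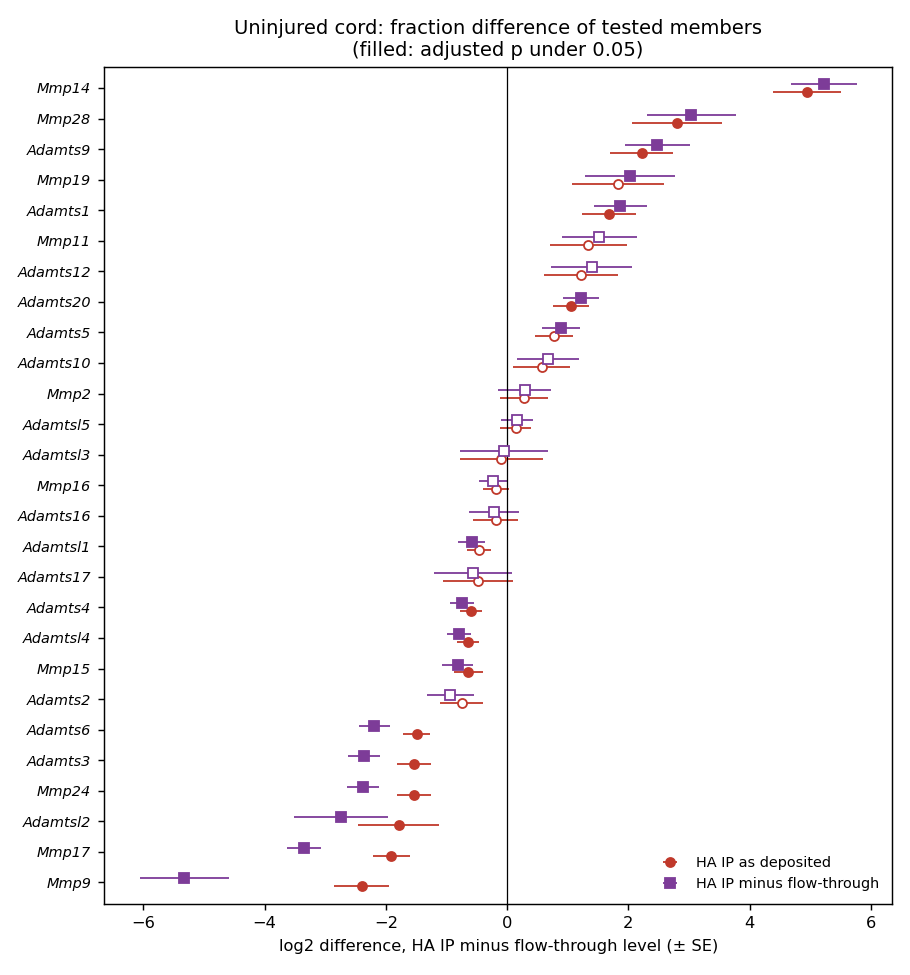
log2 difference of HA IP minus flow-through in uninjured cord (x axis, ± SE) for the tested members, as deposited and after subtraction, with filled symbols at an adjusted p under 0.05. Mmp14 lies at the top at 4.94 and 5.23, and Mmp9 and Mmp17 move farther toward flow-through after subtraction. Subtraction does this by itself where flow-through counts are a large part of the HA IP counts.

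Levels of different genes were compared per kilobase of exon. In subtracted HA IP of uninjured cord the order began with Mmp14 (1.11 CPM per kb), Adamtsl4 (0.790), Adamts1 (0.681), Adamts4 (0.666) and Adamtsl5 (0.573), followed by Adamts20 (0.342), Mmp15 (0.329), Mmp11 (0.313) and Mmp16 (0.224). In flow-through, on its own scale, it began with Adamtsl4 (1.70), Adamts4 (1.38), Mmp17 (0.893), Mmp24 (0.824) and Mmp15 (0.712). Before injury a membrane-type enzyme thus had the highest mean in subtracted HA IP, and an ADAMTS-like protein and an aggrecanase the highest in flow-through. Flow-through is unprecipitated RNA and not the tissue without astrocytes, since its astrocyte markers summed to 250 to 297 CPM in uninjured cord. Neighbours in these orders were not tested against each other.

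Injury in HA IP. From uninjured to WT SCI, Adamts4 rose most evenly, Mmp19, Mmp15, Mmp16 and Adamtsl4 rose as well, and Mmp12 appeared where there had been none. Mmp11 and Adamtsl2 were called higher on the strength of 1 or 2 animals. Mmp28, Adamts6 and Mmp9 fell as deposited, and of these only Adamts6 was called after subtraction. In all, 11 of 28 tested members were called (39.29%), 8 higher and 3 lower, against 26.7% of 14764 genes, with a median log2 difference of 0.63 against 0.00 over all genes. After subtraction 7 of 25 were called, 6 higher and 1 lower, against 20.6% of 14241 genes, with a median of 0.46 against −0.08. Leaving out any 1 uninjured library brought the count to 5 or 6, lowest without animal 79, and to between 2 and 4 after subtraction, lowest without animal 42 or 154. In bulk RNA, a change in the number of cells of a type and a change of RNA per cell cannot be told apart.

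Adamts4 (chr1:171250421-171260637) was the clearest member. Its HA IP level was 3.29, 4.02, 2.97 and 4.21 CPM in uninjured and 19.9, 17.8, 23.2 and 19.3 CPM in WT SCI, so every injured library was above every uninjured one with little spread in either group. The means were 3.62 ± 0.591 (SD, n = 4) and 20.04 ± 2.28 CPM (n = 4). It rose by 2.47 ± 0.30 on the log2 scale (adjusted p = 9.94e-06) and, after subtraction, by 2.79 ± 0.35 from 2.93, 3.53, 2.40 and 3.96 CPM to 20.1, 17.9, 28.5 and 22.2 CPM (adjusted p = 3.88e-05). The call held in 17 of 17 alternatives. Per kilobase, Adamts4 went from the fourth place in subtracted uninjured HA IP to the first in WT SCI (4.61 CPM per kb), ahead of Mmp11 (4.54, with an SD of 8.53), Adamtsl4 (1.98), Mmp19 (1.96), Mmp15 (1.39) and Mmp14 (0.894). Of the other 4 tested members of its class none was called. Adamts5, at 2.62, 1.97, 2.28 and 1.51 CPM in uninjured and 0.978, 9.62, 6.45 and 2.26 CPM in WT SCI, varied most between injured animals.

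Mmp19 (chr10:128790910-128800824) was at 0.615, 0.642, 0.796 and 0.677 CPM in uninjured and 5.54, 4.07, 11.5 and 2.54 CPM in WT SCI. All 4 injured libraries were above the uninjured range, with animal 9843 highest. The rise was 3.10 ± 0.56 (adjusted p = 0.000445) and 3.16 ± 0.66 after subtraction (adjusted p = 0.00271), and it was called in 17 of 17 alternatives. Mmp11 (chr10:75923222-75936496), known from fibroblasts of remodelling tissue, rested on 1 animal: 0.535, 0.782, 0.998 and 0.827 CPM in uninjured and 0, 43.8, 0 and 2.26 CPM in WT SCI. Its log2 difference of 3.90 ± 1.12 (adjusted p = 0.0151) became 0.26 (adjusted p = 0.855) without animal 9874, and 3.88 became 0.10 (adjusted p = 0.951) after subtraction, the highest adjusted p among the alternatives, whose lowest were 0.00355 and 0.0105.

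The membrane-type members did not move together. Mmp15 (chr8:95352268-95375080), an activator of proMMP2, was at 1.79, 2.86, 1.62 and 1.90 CPM in uninjured and 3.58, 15.9, 5.75 and 5.07 CPM in WT SCI. Every injured library was above the uninjured range, and animal 9874 stood above the rest. It rose by 1.91 ± 0.51 (adjusted p = 0.0095) and by 2.11 ± 0.62 after subtraction (adjusted p = 0.0219). Without animal 9874 the difference was 1.25 (adjusted p = 0.0515) and 1.28 (adjusted p = 0.104), the highest of 0.000883 to 0.0515 and 0.00203 to 0.104 over the alternatives. Mmp16 (MT3-MMP, chr4:17852893-18119145) was at 2.10, 2.16, 2.13 and 1.76 CPM in uninjured and 2.28, 10.3, 3.66 and 6.99 CPM in WT SCI. The lowest injured library was just above the highest uninjured one. It rose by 1.54 ± 0.48 (adjusted p = 0.0223) and by 1.79 ± 0.56 after subtraction (adjusted p = 0.0305), where animal 9935 fell within the uninjured range (1.82 CPM). Leaving out any 1 uninjured library or animal 9874 ended the call (adjusted p 0.0579 to 0.0757, of 0.00103 to 0.0757 over all alternatives).

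Mmp14, highest per kilobase before injury, was at 6.15, 5.95, 6.78 and 3.47 CPM in uninjured and 2.61, 2.49, 10.985 and 3.70 CPM in WT SCI. The groups overlapped and it was not called. Mmp17 was at 2.02, 1.02, 0.979 and 1.22 CPM and 0, 0.339, 1.74 and 0.0686 CPM, also not called. Mmp2, gelatinase A, which Mmp14 activates, was at 0.491, 0.756, 0.735 and 0.485 CPM in uninjured and 3.91, 0.792, 1.92 and 1.44 CPM in WT SCI. No library overlapped, yet the test missed the threshold (1.63 ± 0.61, adjusted p = 0.0552, and 1.85 ± 0.71 with 0.0724 after subtraction). DESeq2 called Mmp2 (1.58, adjusted p = 0.0036), and the adjusted p ran from 0.0036 to 0.147 over the alternatives.

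Of the ADAMTS-like proteins, Adamtsl4 (chr3:95676201-95687917) was at 3.71, 4.08, 3.46 and 3.86 CPM in uninjured and 8.80, 6.22, 8.20 and 7.68 CPM in WT SCI. The groups were far apart with a small spread, and it rose by 1.02 ± 0.35 (adjusted p = 0.0376), or 1.32 ± 0.42 after subtraction (adjusted p = 0.0328). Leaving out any 1 uninjured library raised the adjusted p above the threshold (0.0886 to 0.109; 7.53e-05 to 0.109 over all alternatives). Adamtsl2 (chr2:27079379-27108981) was at 0.0562, 0.0261, 0.0796 and 0.0907 CPM in uninjured and 0, 0.113, 1.39 and 2.81 CPM in WT SCI. The injured libraries spread from 0 to the highest value of the gene, and 4.17 ± 1.17 (adjusted p = 0.0132) became 3.03 (adjusted p = 0.0789, the highest over the alternatives, with 0.00168 as the lowest) without animal 9596, and the adjusted p was 0.0521 without uninjured animal 79. It was not tested after subtraction. Adamtsl3 was at 0.515, 0.365, 0.294 and 0.328 CPM and 2.93, 0.792, 0.349 and 1.65 CPM (1.86 ± 0.80, adjusted p = 0.0917). The 17 members not called ranged from −1.32 (Mmp17) to 1.86 (Adamtsl3), with Adamts12 at −0.99 (adjusted p = 0.565).

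The members that fell were low in WT SCI in absolute reads. Mmp28 was at 0.432, 0.840, 0.453 and 0.544 CPM in uninjured and 0, 0, 0 and 0.137 CPM in WT SCI, where it had 2 reads against 537. Outside the ribosomal genes the uninjured level was 10.7 times the injured one, with a 95% exact counting interval of 2.94 to 88.3 (9.80, 2.70 to 81.2, after subtraction), which covers counting error only. The test gave an adjusted p of 0.0288 as deposited and 0.0559 after subtraction, with 0.0142 to 0.0742 over the alternatives, of which 11 of 17 kept the call. Adamts6 (chr13:104287835-104496695) was at 1.29, 0.8294, 0.937 and 1.10 CPM and 0.326, 0.226, 0.174 and 0.206 CPM (−2.22 ± 0.74, adjusted p = 0.0327), and leaving out any 1 uninjured library ended the call (up to 0.0866, with 0.00439 as the lowest over the alternatives). All 7 of its WT SCI reads had an equal flow-through count, so 0 reads were left after subtraction against 522 in uninjured, at least 6.51-fold lower (adjusted p = 0.0225). Mmp9 had 182 reads in uninjured HA IP, at 0.139, 0.240, 0.135 and 0.234 CPM, and 0 in WT SCI, at least 2.41-fold lower (adjusted p = 0.0395; 0.0224 to 0.0923 over the alternatives, called in 6 of 14). After subtraction 19 uninjured reads of Mmp9 were left, at 0.146 CPM outside the ribosomal genes. That is below the WT SCI floor of 0.615 CPM, so no bound could be set, and Mmp9 was not tested. Such bounds use 3 counts over the group as the floor and CPM outside the ribosomal genes.

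Mmp12, macrophage elastase (chr9:7344381-7369499), had 0 reads in both fractions of every uninjured animal and of WT SCI animal 9935. The other 3 WT SCI animals had 13, 57 and 24 reads in HA IP and 13, 44 and 24 in flow-through. The HA IP level in WT SCI was 0, 1.47, 9.94 and 1.65 CPM, at least 789-fold above the floor of the uninjured group (adjusted p = 4.66e-05, called in 15 of 15 alternatives). After subtraction 13 reads were left, all from animal 9843, a bound of at least 116-fold that rests on 1 animal, and the gene was too low to be tested. The 11 microglia and macrophage markers moved with it: their summed HA IP level was 11.2 to 24.4 CPM in uninjured and 560 to 2303 CPM in WT SCI, or 6.56 to 20.5 and 90.2 to 654 CPM after subtraction. In HA IP 10 of the 11 were called higher (9 after subtraction). Neutrophil markers reached at most 1.96 CPM in WT SCI HA IP, with Elane at 0. Their part in the level of Mmp12 was not tested.

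Markers of other cells moved in HA IP with injury as well. The 4 neuron markers, which moved with Adamts6 and Mmp9, summed to 307 to 577 CPM in uninjured and 40.9 to 109 CPM in WT SCI (74.0 to 103 and 6.09 to 48.6 CPM after subtraction), and 3 of 4 were called lower, or 1 after subtraction. The 5 oligodendrocyte markers summed to 1178 to 1576 CPM in uninjured and 5166 to 8020 CPM in WT SCI, all 5 called higher, and stayed as high after subtraction (5501 to 9258 CPM in WT SCI). In flow-through, on its own scale, they summed to 2885 to 3385 CPM in uninjured and 4134 to 4702 CPM in WT SCI. HA IP of WT SCI thus held much oligodendrocyte RNA and not astrocyte RNA alone. Fibroblast and pericyte markers rose from 21.7 to 25.1 CPM to 48.1 to 104 CPM, with Rgs5 at 0 in WT SCI. After subtraction they went from 23.2 to 27.3 CPM to 49.1 to 112 CPM, with Dcn, Lum and Rgs5 at 0 in WT SCI. The 4 oligodendrocyte precursor markers rose from 137 to 249 CPM to 377 to 519 CPM (161 to 267 and 411 to 580 CPM after subtraction). The 7 astrocyte markers spanned 3860 to 4812 CPM and 3065 to 5407 CPM. The part of these cells in the falls of Adamts6 and Mmp9 and in the rises of Adamts4, Mmp11, Mmp15, Mmp16, Mmp19 and Adamtsl4 was not tested.

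Other genes of the pathway were called with injury as well, against 26.7% of all genes. Timp1, the inducible inhibitor, rose from at most 0.496 CPM to 105, 106, 61.7 and 50.9 CPM (7.76 ± 0.47, adjusted p = 7.23e-09; 7.91 after subtraction), a far larger change than that of any protease with counts in both groups. Of 9 inhibitors 3 rose (A2m, Timp1, Timp2) and 1 fell (Timp4). Of 6 activators 3 rose and 0 fell (Plau, the urokinase that makes plasmin, its receptor Plaur, and the convertase Pcsk6), and 2 after subtraction. Of 16 substrates 7 rose and 1 fell. Mbp (2.80 ± 0.26; 3.31) and fibronectin, Fn1 (5.49 ± 0.66; 4.99), had the smallest adjusted p among those that rose, and the proteoglycan neurocan, Ncan, fell by 1.15 ± 0.30 on the log2 scale (−1.20 after subtraction). Of 7 surface partners 2 rose and 2 fell, the integrin Itgav (−1.09 ± 0.30; −1.27) and the tetraspanin Tspan12 (−1.18 ± 0.33; −1.24), and of 7 related ADAM proteases 4 rose, or 1 (Adam15) after subtraction.

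**Figure D3:**
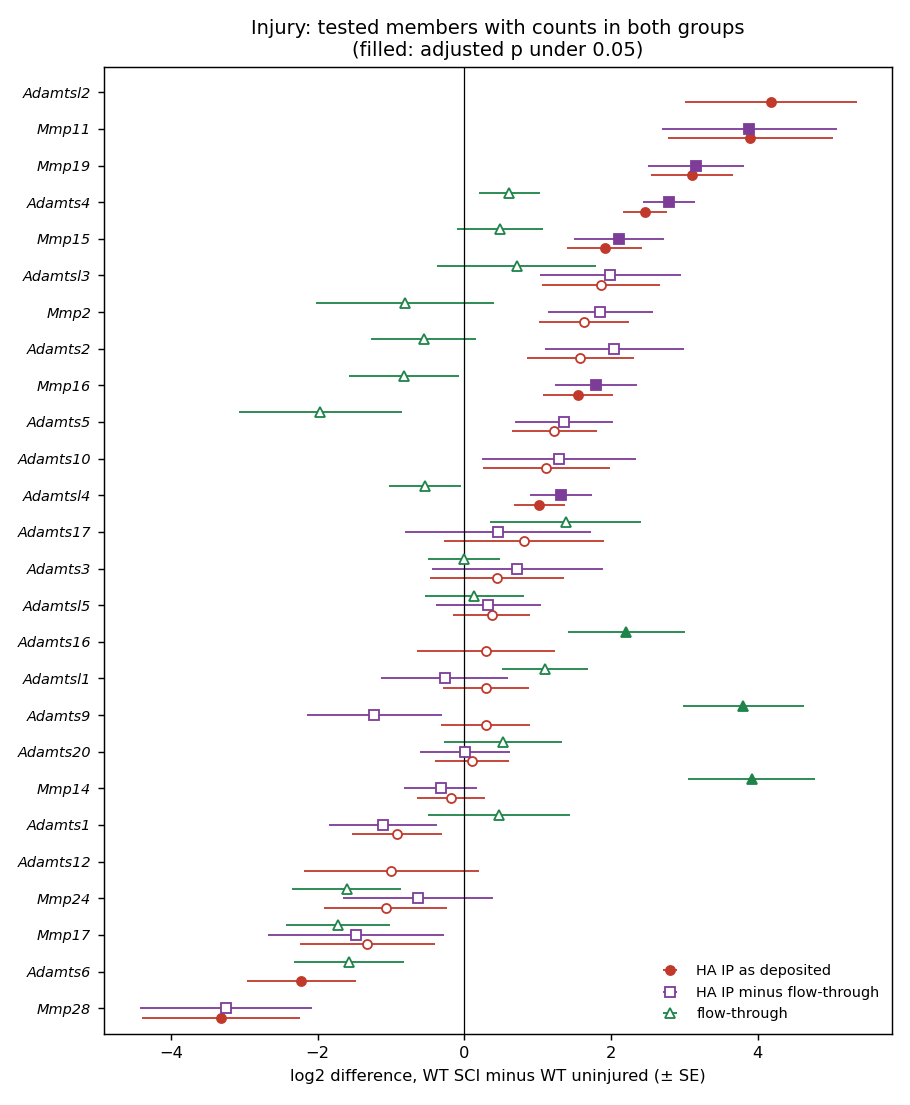
log2 difference of WT SCI minus WT uninjured (x axis, ± SE) for tested members with counts in both groups, in deposited HA IP, subtracted HA IP and flow-through, with filled symbols at an adjusted p under 0.05. Adamts4 is high and narrow in HA IP (2.47 and 2.79) and at 0.61 in flow-through, whereas Mmp14 and Adamts9 are high in flow-through (3.91 and 3.80).

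Injury in the flow-through. In the RNA not bound to astrocyte ribosomes, Mmp12, Mmp14, Adamts9 and Adamts16 rose and Mmp9 fell. These were 5 of 22 tested members (22.73%), 4 higher and 1 lower, against 31% of 12685 genes, a share below that of all genes. The median log2 difference was 0.31 against −0.09 over all genes.

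Mmp14 was at 0.0159, 0.347, 0.504 and 0.221 CPM in uninjured and 0, 0.774, 8.12 and 4.43 CPM in WT SCI. Animal 9935, the shallowest library, had none, and the other 3 were above the uninjured range (3.91 ± 0.86, adjusted p = 0.000992, called in 15 of 15 alternatives). These rest on 29 reads in uninjured and 25 in WT SCI. Adamts9 (chr6:92772699-92943492) was at 0.111, 0.390, 0.673 and 0.180 CPM and 0, 2.32, 9.59 and 4.43 CPM, with the same 3 animals high (3.80 ± 0.82, adjusted p = 0.000866, called in 14 of 14 alternatives). It had 37 reads in uninjured and 29 in WT SCI. Adamts16 (chr13:70727802-70841811), which can cut fibronectin, was at 0.716, 0.823, 0.392 and 0.782 CPM and 7.88, 0.774, 3.69 and 2.39 CPM (2.21 ± 0.80, adjusted p = 0.0367). Adamts16 had 110 reads in uninjured and 17 in WT SCI, where the 7.88 CPM of animal 9935 came from 4 reads. Its groups overlapped, and the call ended without flow-through of animal 9935 (1.74, adjusted p = 0.110, the highest over the alternatives, with 0.0141 as the lowest; 7 of 11 kept the call).

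Mmp12 was at 0 in uninjured and at 0, 10.1, 32.5 and 8.18 CPM in WT SCI flow-through, at least 519-fold higher (adjusted p = 3.26e-08). The summed microglia and macrophage markers were 33.1 to 64.8 CPM and 2574 to 8741 CPM there, and their part was not tested. Mmp9 was at 0.620, 1.99, 0.953 and 1.22 CPM in uninjured and had 0 reads in WT SCI, at least 2.82-fold lower (adjusted p = 0.0258, and 0.0866 without animal 9596, with 0.0190 as the lowest over the alternatives). Mmp17 was at 8.75, 4.42, 5.21 and 5.27 CPM and 0, 0.774, 5.90 and 0.341 CPM (−1.72 ± 0.71, adjusted p = 0.0673); without animal 9843 it passed (−3.78, adjusted p = 0.00226, the lowest over the alternatives, with 0.227 as the highest). Neuron markers fell from 2200 to 2845 CPM to 177 to 458 CPM in flow-through, and their part was not tested. Adamts4, at 5.65, 7.497, 7.34 and 6.02 CPM and 11.8, 10.1, 8.12 and 10.9 CPM, did not overlap between groups but did not pass (0.61 ± 0.42, adjusted p = 0.273). The 17 members not called ranged from −1.96 (Adamts5) to 1.38 (Adamts17).

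With the ribosomal genes left out of the counts, 15 members could be tested and 2 were called, Mmp12 and Mmp14 (3.85), while Adamts9, Adamts16 and Mmp9 were too low to enter. Of the pathway, Fn1 (6.40 ± 0.44), Col1a1 (4.48 ± 0.49) and A2m (4.69 ± 0.53) rose in flow-through and Spock3 fell (−2.39 ± 0.50).

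Where injury acted. The injury effect was tested for a difference between HA IP and flow-through in 1 fit over all libraries, without a term for the animal. Adamts4 rose more in HA IP, and Mmp14 and Adamts9 rose more in flow-through. These were 3 of 34 tested members (8.82%), 1 in favour of HA IP and 2 of flow-through, against 4.71% of 15142 genes (members' median 0.60, all genes 0.26). After subtraction 6 of 32 were called, 3 in each direction, against 10.3% of 14903 genes.

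For Adamts4 the HA IP effect exceeded the flow-through effect by 2.04 ± 0.46 on the log2 scale (adjusted p = 0.0063), and by 2.44 ± 0.51 after subtraction (adjusted p = 0.0018). It was called in 28 of 28 alternatives. The 5 oligodendrocyte markers also rose more in HA IP, each fraction on its own scale. They went from 1178 to 1576 CPM to 5166 to 8020 CPM in HA IP. In flow-through they went from 2885 to 3385 CPM to 4134 to 4702 CPM. Their part in the difference of Adamts4 was not tested. For Mmp14 the difference of effects was −3.97 ± 0.96 (adjusted p = 0.0113) and −4.00 ± 1.00 (adjusted p = 0.00798). Mmp14 in HA IP was thus far above its flow-through level before injury and closer to that level in WT SCI, where flow-through had risen. For Adamts9 it was −3.34 ± 1.01 (adjusted p = 0.0491) and −4.76 ± 1.26 (adjusted p = 0.0124). The subtracted HA IP level of Adamts9 in WT SCI was 1.09, 0.746, 0.701 and 0 CPM, and flow-through was highest in animal 9843. Without the flow-through of animal 9843 the values were −2.66 (adjusted p = 0.167) for Adamts9 and −3.35 (adjusted p = 0.0598) for Mmp14, the highest over the alternatives, with 0.00102 and 0.000386 as the lowest. Adamts9 kept its call in 11 of 28 alternatives and Mmp14 in 27 of 28.

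Another 3 members passed this test after subtraction, which puts the same flow-through counts on both sides, but not as deposited. Adamtsl4 was 2.12 ± 0.64 (adjusted p = 0.0292; deposited 1.75, adjusted p = 0.0717) and Mmp16 was 2.87 ± 0.93 (adjusted p = 0.0439; deposited 2.56, adjusted p = 0.0793), both higher in HA IP. These calls held in 19 of 27 alternatives for Adamtsl4 (adjusted p 0.00139 to 0.0931) and in 7 of 27 for Mmp16 (0.00846 to 0.101). Flow-through of Adamtsl4 was 5.84, 6.85, 9.58 and 6.22 CPM in uninjured and 1.97, 6.19, 5.90 and 4.43 CPM in WT SCI, against the rise in HA IP given above. Adamts16 had 0 subtracted HA IP reads in WT SCI, since its flow-through counts there equalled its HA IP counts. The same reads made up its flow-through level, so its call (lower in HA IP, adjusted p = 0.0144) shows no size and is not separate support. As deposited, Adamts16 was at −1.74 (adjusted p = 0.528). Adamts5 did not pass (subtracted 3.58, adjusted p = 0.0692), nor did Adamts12 (0.0713, with 0 subtracted reads in WT SCI) or Mmp11 (deposited 2.74, adjusted p = 0.416). With the animal as a replicate block, 6 members were called as deposited, adding Adamtsl4 (1.70), Mmp16 (2.68) and Adamts5 (3.35). Of the pathway, Mbp (2.17 ± 0.31; 2.76) and the matrix glycoprotein Tnr (2.39 ± 0.43; 2.74) rose more in HA IP, and A2m (−2.86 ± 0.55; −2.85), Timp3 (−1.94 ± 0.43; −1.98) and Cd44 (−2.70 ± 0.61; −2.88) more in flow-through.

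**Figure D4:**
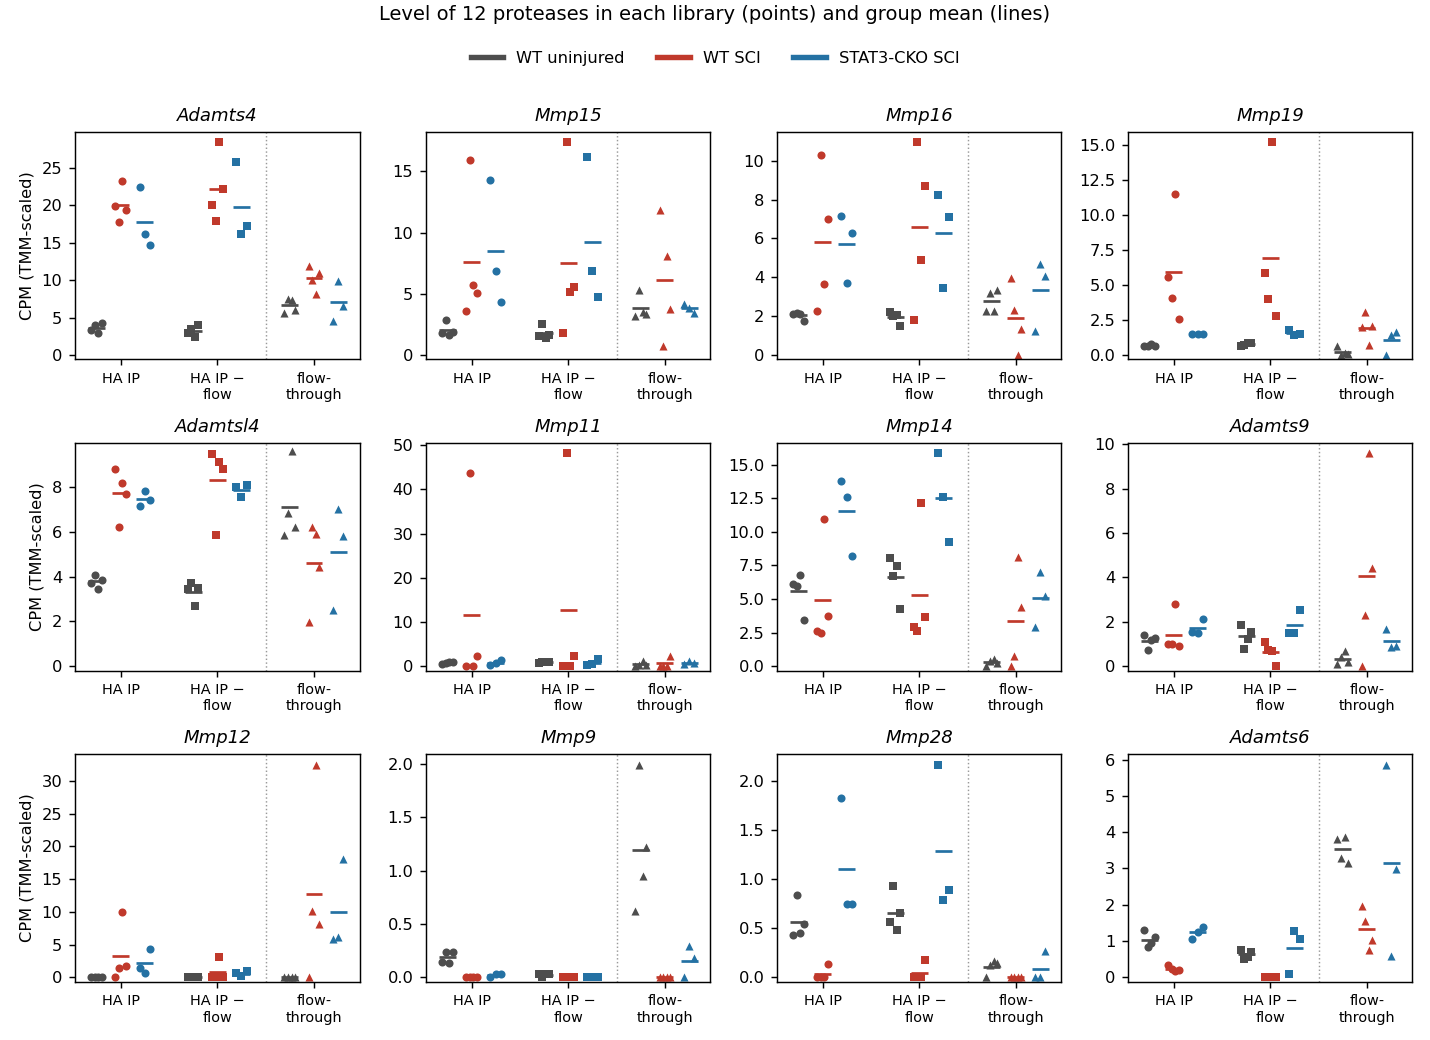
Level of 12 members in each library (points, CPM on linear axes starting at 0) with group means (lines), for deposited HA IP, HA IP minus flow-through, and flow-through, which is on its own scale right of the dotted line. Adamts4 separates injured from uninjured animals in HA IP, and the single high Mmp11 point is WT SCI animal 9874 at 43.8 CPM.

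Loss of STAT3. The comparison of STAT3-CKO SCI with WT SCI asks which members depended on astrocyte STAT3 after injury. In HA IP, 0 of 28 tested members were called by edgeR's quasi-likelihood test, against 1.16% of 14764 genes, and 8 had an unadjusted p under 0.05. DESeq2 called 3, Mmp28 (4.00, adjusted p = 0.0114) and Adamts6 (2.47, adjusted p = 0.0155) higher and Mmp19 (−2.04, adjusted p = 0.00193) lower in STAT3-CKO SCI. The members' median was 0.21 against 0.03 over all genes. After subtraction edgeR called 1 of 25, Adamts16, against 1.24% of 14241 genes.

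The members with the smallest adjusted p did not pass it. The Rn45s share and depth also differed between genotypes: outside the ribosomal genes, HA IP held 2496641 to 17348247 counts in STAT3-CKO SCI and 620265 to 2691494 in WT SCI, and genotype cannot be told apart from these. Mmp28 was at 1.82, 0.751 and 0.743 CPM in STAT3-CKO SCI against 0, 0, 0 and 0.137 CPM in WT SCI, with 140 reads against 2. Every STAT3-CKO library was above every WT SCI library. Outside the ribosomal genes the ratio was 16.4 (95% exact counting interval 4.46 to 137; 15.5, 4.21 to 129, after subtraction), and edgeR gave an adjusted p of 0.0647 (0.0884 after subtraction; 0.0114 to 0.305 over the alternatives). Adamts6 was at 1.05, 1.26 and 1.39 CPM against 0.326, 0.226, 0.174 and 0.206 CPM, again with no overlap (2.48 ± 0.77, adjusted p = 0.122). After subtraction it had 140 reads against 0, at least 10.8-fold higher (adjusted p = 0.0819). Mmp19 was at 1.47, 1.501 and 1.49 CPM, below all 4 WT SCI libraries (−1.98 ± 0.60, adjusted p = 0.11; −2.14 ± 0.71 after subtraction) and above all 4 uninjured libraries.

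Adamts16 was at 8.41, 0.375 and 0.717 CPM in STAT3-CKO SCI HA IP and 1.30, 0.113, 0.872 and 0.480 CPM in WT SCI, where all 17 reads had an equal flow-through count. After subtraction WT SCI had 0 reads and STAT3-CKO SCI 209, at 10.0, 0.396 and 0.833 CPM, at least 16.1-fold higher (adjusted p = 0.0344). Animal 186 held most of them, and without it the adjusted p was 0.102. The call was lost in 9 of 16 alternatives (0.000393 to 0.164), most of them with another single library left out.

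Adamts4 was at 22.5, 16.2 and 14.7 CPM in STAT3-CKO SCI against 19.9, 17.8, 23.2 and 19.3 CPM in WT SCI, with 2 libraries below the WT SCI range. The difference was −0.17 ± 0.31 (adjusted p = 0.822; −0.17 ± 0.36 after subtraction), and a p that misses the threshold does not show that the levels were equal. Mmp15 (14.3, 6.84 and 4.33 CPM) and Mmp16 (7.15, 3.70 and 6.30 CPM) lay within the WT SCI range. Mmp11 was at −3.83 (adjusted p = 0.141), with the single high WT SCI library given above, Mmp12 at −0.60 and Adamts12 at 0.71, none called. Mmp14 was at 13.8, 12.6 and 8.20 CPM, above 3 of the 4 WT SCI libraries (1.22 ± 0.50, adjusted p = 0.232; 1.25 ± 0.54 after subtraction). Around these proteases other genes of the pathway did pass the test. Timp1 fell to 2.59, 3.43 and 0.934 CPM (−5.15 ± 0.48, adjusted p = 1.15e-05; −5.26 after subtraction), A2m fell (−2.14 ± 0.31; −2.08) and Mbp fell (−1.23 ± 0.27; −1.30), while the proteoglycans Ncan (2.38 ± 0.32; 2.37) and Bcan (1.43 ± 0.31; 1.40) rose. Of 6 activators and 7 ADAM proteases, 0 were called by edgeR. In HA IP of STAT3-CKO SCI and WT SCI, microglia and macrophage markers summed to 852 to 1115 and 560 to 2303 CPM, which overlap. Oligodendrocyte markers did not overlap, at 3031 to 3558 and 5166 to 8020 CPM, nor did Schwann cell markers, at 11.3 to 27.6 and 1.63 to 8.94 CPM. After subtraction these were 2978 to 3960 and 5501 to 9258 CPM, and 13.7 to 27.5 and 1.09 to 8.71 CPM. Their part in the genotype values was not tested.

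In flow-through, 0 of 22 members were called by edgeR between genotypes, against 0.118% of 12685 genes, with 5 at an unadjusted p under 0.05 and medians of 0.05 and 0.09. DESeq2 called Adamts16, at 0, 0 and 0.357 CPM in STAT3-CKO SCI (−3.85, adjusted p = 0.021; edgeR −3.79 ± 1.05, adjusted p = 0.13). Mmp12 was at −0.36 (adjusted p = 0.852). Of the pathway, A2m fell (−3.41 ± 0.58). Tested for a difference between fractions, the genotype effect was called in 0 of 34 members by edgeR against 0.0264% of 15142 genes (5 below 0.05 before adjustment, and DESeq2 called Adamts16 alone, 1 member). After subtraction it was called in 1 of 32, Adamts16, against 0.107% of 14903 genes (adjusted p = 0.00791). The flow-through counts taken from HA IP also stood on the other side of this test, which shifts the value by itself. As deposited, Adamts16 was at 6.18 and did not pass (edgeR adjusted p = 0.451). Its subtracted HA IP rose from 0 reads in WT SCI while its flow-through level went from 7.88, 0.774, 3.69 and 2.39 CPM to at most 0.357 CPM. These flow-through levels rest on 17 reads in WT SCI and 8 in STAT3-CKO SCI.

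**Figure D5:**
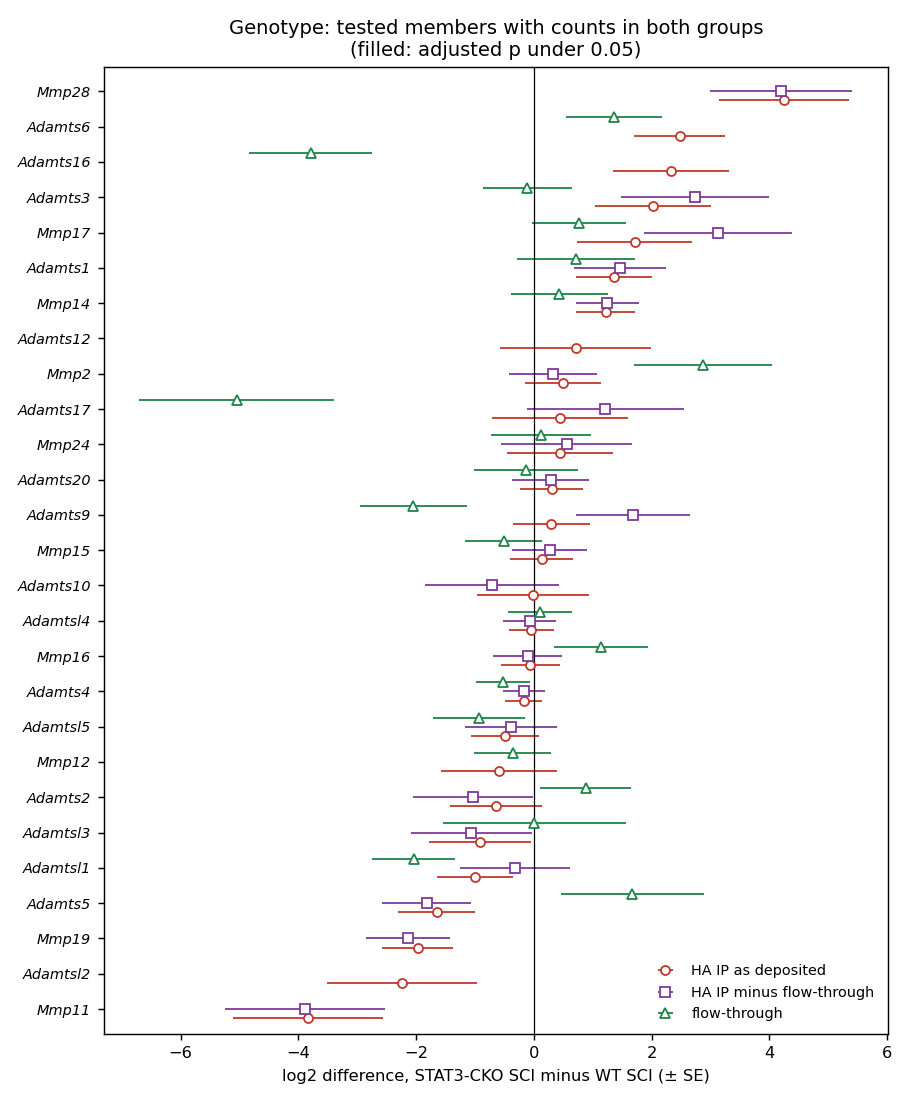
log2 difference of STAT3-CKO SCI minus WT SCI (x axis, ± SE) for tested members with counts in both groups, in deposited HA IP, subtracted HA IP and flow-through, with filled symbols at an adjusted p under 0.05. No symbol is filled: Mmp28 at 4.25 and Adamts6 at 2.48 are the highest of the deposited HA IP values named in the text and Mmp19 lies at −1.98, while Adamts16 after subtraction is absent because WT SCI had 0 reads.

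STAT3-CKO SCI against uninjured cord. Adamts4, Mmp15, Mmp2 and Mmp12 were higher in HA IP, 4 of 28 members (14.29%), all higher, against 9.78% of 14764 genes (median 0.94, all genes 0.00). After subtraction Adamts4 and Mmp15 were called, 2 of 25, against 5.91% of 14241 genes. This comparison and the one of WT SCI share their uninjured libraries, so the values stand side by side without a test of likeness. Adamts4 was 2.29 ± 0.31 above uninjured (adjusted p = 5.09e-05) and 2.62 ± 0.36 after subtraction, at 25.8, 16.1 and 17.2 CPM. Mmp15 was 2.04 ± 0.53 (adjusted p = 0.0172) and 2.37 ± 0.64, and without animal 186, its highest library, 1.44 (adjusted p = 0.158, the highest over the alternatives, with 0.00261 as the lowest). Mmp2 was at 2.66, 2.33 and 3.03 CPM, tight and above all uninjured libraries (2.12 ± 0.62, adjusted p = 0.0346; 2.18 ± 0.73 with 0.0881 after subtraction), and it kept its call in 9 of 17 alternatives (0.00014 to 0.139). Mmp16 (1.48 ± 0.50, adjusted p = 0.0661) and Adamts16 (2.63 ± 0.90, adjusted p = 0.0727) did not pass. The 24 members not called ranged from −2.75 (Mmp9) to 2.63 (Adamts16), with Mmp11 at 0.07 and Adamts12 at −0.29.

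Mmp12 had 21, 26 and 495 HA IP reads and 14, 21 and 406 flow-through reads in STAT3-CKO SCI, at 1.47, 0.697 and 4.28 CPM in HA IP. Animal 270 held most of them. The HA IP level was at least 1067-fold above the uninjured floor (adjusted p = 0.000131), and at least 208-fold after subtraction from 101 reads. In flow-through, 2 of 22 members were called, both higher, against 13.9% of 12685 genes (median −0.07, all genes 0.00). These were Mmp12, at 5.86, 6.14 and 18.1 CPM and at least 703-fold above the floor, and Mmp14, at 2.93, 7.02 and 5.22 CPM, above every uninjured library (4.35 ± 0.83, adjusted p = 0.000345). Mmp2 (2.06 ± 0.76, adjusted p = 0.0728) and Mmp9, at 0, 0.292 and 0.178 CPM (−2.72 ± 1.01, adjusted p = 0.0771), did not pass, and the 20 members not called ranged from −3.66 (Adamts17) to 2.06 (Mmp2). Of the pathway, Tnr (2.35 ± 0.28; 2.62), Plau (7.20 ± 0.90; 7.34) and Fn1 (4.85 ± 0.65; 4.44) were higher and Tspan12 lower (−1.41 ± 0.37; −1.44) in HA IP. In flow-through Fn1 (5.98 ± 0.44), Col1a1 (4.44 ± 0.49) and Plaur (6.94 ± 0.79) were higher and Tspan12 lower (−1.66 ± 0.52).

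Fractions after injury. In WT SCI, HA IP and flow-through could be compared for 9 members, and edgeR called 0, against 6.25% of 8466 genes, with 3 below 0.05 before adjustment and DESeq2 also calling 0 (members' median 0.63, all genes 0.07). Adamts4 was at 1.17 ± 0.46 (adjusted p = 0.145; 1.36 with 0.0947 after subtraction), Mmp19 at 1.77 (adjusted p = 0.22), and the 9 ranged from −1.81 (Mmp12) to 2.03 (Mmp16). With the animal as a replicate block Mmp12 was called lower in HA IP (−2.02, adjusted p = 0.0423). After subtraction 0 of 7 were called, against 12.2% of 7726 genes, with 2 below 0.05 before adjustment, while DESeq2 called 1. The pathway genes Bcan (3.34 ± 0.43; 3.59), A2m (1.70 ± 0.35; 1.91) and Timp4 (1.87 ± 0.41; 2.07) were higher in HA IP and Timp2 lower (−1.07 ± 0.30; −1.63).

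In STAT3-CKO SCI, 3 of 24 members were called, all higher in HA IP (12.5%, against 11.8% of 12659 genes), Adamts4, Mmp14 and Adamts16. After subtraction 5 of 24 were called, against 17% of 12328 genes. Adamts4 was at 25.6, 18.5 and 17.1 CPM in HA IP and 4.35, 9.30 and 6.24 CPM in flow-through (1.61 ± 0.38, adjusted p = 0.01; 1.82 ± 0.41 after subtraction). In uninjured WT animals Adamts4 had been lower in HA IP than in flow-through. Uninjured STAT3-CKO animals were not analysed, so injury and genotype both differ between these groups. Mmp14 was at 15.7, 14.4 and 9.59 CPM against 2.77, 6.57 and 5.00 CPM (1.44 ± 0.43, adjusted p = 0.0345; 1.62 ± 0.46), and leaving out 1 library could end the call (adjusted p 0.0547 to 0.108 in 5 of 12 alternatives, 0.00178 at the lowest). Adamts16 was at 9.58, 0.429 and 0.838 CPM against 0, 0 and 0.342 CPM (4.00 ± 1.25, adjusted p = 0.0444; 4.33 ± 1.31), and without the flow-through of animal 531 the adjusted p was 0.130 (0.00707 to 0.130 over the alternatives).

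Mmp12 stood toward flow-through, at 1.68, 0.796 and 5.00 CPM in HA IP and 5.54, 5.74 and 17.4 CPM in flow-through (−1.96 ± 0.63, adjusted p = 0.0516), and after subtraction it passed (−3.79 ± 0.75, adjusted p = 0.00183). Each animal had a lower level in HA IP. Mmp15 was at 16.3, 7.81 and 5.06 CPM against 3.96, 3.56 and 3.29 CPM (1.44 ± 0.51, adjusted p = 0.0762; 1.62 ± 0.55 with 0.0494 after subtraction). The 21 members not called ranged from −1.96 (Mmp12) to 2.93 (Mmp28; 3.25 with an adjusted p of 0.0989 after subtraction), with Mmp11 at 0.38 and Mmp2 at 0.37. With the animal as a replicate block 6 members were called as deposited, adding Mmp12 (−2.09), Mmp15 (1.19) and Mmp28 (2.66). Bcan (3.45 ± 0.41; 3.70), A2m (3.04 ± 0.41; 3.33) and Timp3 (2.25 ± 0.30; 2.50) were higher in HA IP and Spock1 (−1.41 ± 0.29; −2.02), Timp2 (−1.14 ± 0.28; −1.61) and Spock2 (−1.06 ± 0.28; −1.49) lower.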

How the data were processed

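Ribosome-bound (HA IP) and unbound (flow-through) RNA of 11 animals was turned into cDNA from 5 ng of RNA and sequenced as paired ends, per the labels' protocols. The authors deposited tables of raw read counts per gene, per the file headers. The submitters' processing notes name CASAVA 1.8.2, mm10 and edgeR, while aligner, counting tool, annotation and strand setting were not given in the sources used here, so reads of overlapping or antisense genes and of close paralogs are uncertain. The tables held 124 more columns of sample values that match no label and were left unused, and in 27 genes a date stood in place of the symbol. Groups came from the genotype, condition and fraction labels and animals from the titles. The 11 libraries of a fraction entered 1 fit, the fractions of a condition another, and all 22 libraries the tests between fractions. Genes were filtered with filterByExpr, scaled with TMM and tested with edgeR 4.0.16 (quasi-likelihood, two-sided) in R 4.3.3, Benjamini-Hochberg adjusted over all genes tested, and called at an adjusted p under 0.05. CPM are counts per TMM-adjusted library size. Alternatives were RLE scaling, no filter, DESeq2 1.42.0, the ribosomal genes left out, 2 groups in the fit, each library left out, the animal as a replicate block and, added after the data were seen, subtraction of flow-through from HA IP counts. Fractions of 1 animal pair by their titles, and their deviations from group means correlated at 0.25 to 0.647 as deposited and 0.0136 to 0.252 after subtraction. Gene positions and exon lengths are GENCODE vM21 on GRCm38. The fit within HA IP was run on simulated counts drawn from a common mean profile with the same spread for every gene. The simulation had no shift in the Rn45s share, no link between fractions and no test across fractions, so it does not cover these limits. Members, gene lists and comparisons were chosen with earlier results of these data known. Every member called in at least 1 comparison is named, as are those with an adjusted p under 0.1 or alone in their class, and up to 3 called pathway genes per direction. That the animals are biological replicates is read from their numbers. Within a fraction, p-values measure the spread between animals. Tests across fractions took both libraries of an animal as independent, except with the animal as a replicate block, so their p-values do not measure that spread.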

Additional observations from a re-analysis of the deposited data

Results flagged for a closer look

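In 6 of 53 groups of 4 libraries, 1 member's highest or lowest library stood far from the other 3. The cutoff would flag about 5% of groups with normally distributed values. Only groups of called members were searched and some levels were near 0, so no excess over chance can be read from this. Mmp11 was at 43.8 CPM in the HA IP of WT SCI animal 9874 and at 0 to 2.26 CPM in the other 3. Mmp12 was at 9.94 CPM in the HA IP of WT SCI animal 9843 and at most 1.65 CPM in the others. Mmp28 was at 0.137 CPM, from 2 reads, in the HA IP of WT SCI animal 9596 and at 0 in the others. In uninjured cord, Mmp16 was at 1.76 CPM in the HA IP of animal 154 (2.10 to 2.16 CPM in the others), Mmp15 at 5.29 CPM in the flow-through of animal 79 (3.20 to 3.53 CPM) and Mmp24 at 5.65 CPM in the flow-through of animal 42 (3.08 to 3.51 CPM).

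The injury effect differed between HA IP and flow-through by a test of the difference itself for Adamts4 (2.04 as deposited, 2.44 after subtraction), Adamts9 (−3.34 and −4.76) and Mmp14 (−3.97 and −4.00). After subtraction it also differed for Adamtsl4 (2.12), Mmp16 (2.87) and Adamts16 (fitted −9.68). The genotype effect on Adamts16 differed after subtraction (fitted 14.47). The values of Adamts16 come from a group that subtraction left with 0 reads, so they show no size. The subtracted flow-through counts also stood on the other side of both tests. As deposited, Adamts16 was at −1.74 for injury (edgeR adjusted p = 0.528) and 6.18 for genotype (0.451).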

How the results depend on the processing

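Of 81 called results of single members, 45 kept their call under every alternative that tested them and 0 reversed. The 81 take in calls on deposited and on subtracted counts, so the same gene and comparison can enter under both. Counts of called members that moved by over 1.5 times were as follows. Without a filter they were 7 for STAT3-CKO SCI against uninjured in HA IP (4 as designed), 4 in flow-through (2), 5 for HA IP against flow-through in STAT3-CKO SCI (3), and 4 in subtracted WT SCI (0). DESeq2 gave 3 for genotype in HA IP (0), 7 for STAT3-CKO SCI against uninjured (4), 1 for genotype in flow-through (0), 5 for the fractions in STAT3-CKO SCI (3), 5 for the injury effect between fractions (3), 1 for the genotype effect between fractions (0) and, after subtraction, 5 for genotype (1), 6 for STAT3-CKO SCI against uninjured (2) and 1 for the fractions in WT SCI (0). With 2 groups in the fit, STAT3-CKO SCI against uninjured had 10 in HA IP, 6 in flow-through and 8 after subtraction, WT SCI against uninjured 1 in flow-through (5), and subtracted genotype 0. Without the ribosomal genes flow-through of WT SCI against uninjured had 2. The replicate block gave 1 in WT SCI, 6 in STAT3-CKO SCI and 6 for the injury effect; it changed no other count by as much, with 17 in uninjured (14) and, after subtraction, 17, 0, 5, 5 and 1. Subtraction itself gave 7 (11 as deposited), 1 (0), 2 (4), 5 (3), 6 (3) and 1 (0).

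With each library left out, the counts ranged from 5 to 12 for WT SCI against uninjured in HA IP, lowest without uninjured animal 79, 0 to 2 for genotype, 2 to 7 for STAT3-CKO SCI against uninjured, 3 to 7, 0 to 0 and 2 to 3 for the same in flow-through, 12 to 19, 0 to 0 and 1 to 4 for the fractions of uninjured, WT SCI and STAT3-CKO SCI animals, and 1 to 4 and 0 to 0 between fractions. After subtraction they were 2 to 10, 0 to 2, 1 to 5, 13 to 21, 0 to 1, 2 to 5, 4 to 7 and 1 to 1. Uncalled Adamts16 turned sign for injury in HA IP without WT SCI animal 9935 (−0.11, where leaving out single libraries spanned −0.11 to 0.68) or by subtraction (−8.41, fitted on 0 reads), and for genotype without animal 186 (−0.17, span −0.17 to 2.87). Uncalled Adamts12 turned sign for the injury effect between fractions without flow-through of animal 9596 (4.60, span −8.93 to 4.60, fitted on few reads). The cause was not tested. Depth limits the WT SCI flow-through most: 3 reads there were 4.88 to 32.7 CPM outside the ribosomal genes.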
